A study of Mus musculus with 16 samples.

Results

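A set of 10 genes of tumour necrosis factor (TNF) signalling was followed in 2 sorted brain cell populations, macrophages and microglia, of CD163KO and WT mice that had received α-syn MONO or PFF. They were Tnf, the ligand, its receptor genes Tnfrsf1a and Tnfrsf1b, the nuclear factor κB (NF-κB) subunit genes Nfkb1, Nfkb2, Rela and Rel, and the inhibitor and feedback genes Nfkbia, Nfkbiz and Tnfaip3. These 10 genes were taken by name from the 18576 genes with a symbol. No expression value entered the rule, but the genes were chosen with earlier results of these data known. All 10 were listed in both populations.

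The CD163KO mice carried the CD163tm1.1(KOMP)Vlcg allele, and the WT mice were C57BL/6N littermates. Mice of either sex were operated at 12 weeks of age, received monomeric (MONO) or fibrillar (PFF) α-syn in the striatum on both sides, and were killed 2 months p.i., so no library came from uninjected mice. Each combination of sex, genotype and treatment had between 4 and 7 mice and gave 1 library of macrophages (CD45 high, CD11b+, from 10000 to 30000 cells) and 1 of microglia (CD45 low or intermediate, CD11b+, from 200000 to 500000 cells). The macrophage gate also takes infiltrated cells, neutrophils and NK cells, according to the study's description. SMART-seq2, which copies full-length mRNA, was used for all 16 libraries. The study left male CD163KO mice given MONO out for discordant technical replicates. Their levels are given here, but the tests use the other 7 combinations.

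TNF is a cytokine that is made mainly by myeloid cells, and microglia and macrophages both respond to it. It binds TNFR1 (Tnfrsf1a), which most cells carry, and TNFR2 (Tnfrsf1b), which is largely found on immune, glial and endothelial cells. Receptor signalling frees NF-κB dimers from their IκB inhibitors, and NF-κB then drives cytokine and chemokine genes as well as its own brakes, such as IκBα (Nfkbia) and the ubiquitin-editing enzyme A20 (Tnfaip3).

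The upstream sequences of 4 members are shown as examples from the comparison of the populations below. Relative to the median gene, Tnf and Nfkbia lay higher in macrophages, and Tnfrsf1b and Tnfaip3 lay lower. Rel, whose sequence is not shown, lay further below the median gene than Tnfrsf1b in the main test of the populations. Each run is the 250 bases before a RefSeq transcript start in GRCm38.p6, 5′ to 3′ on the strand of the gene, with matches to the κB consensus of NF-κB, on either strand, in capitals.
Tnf, chr17:35202008-35202257, minus strand: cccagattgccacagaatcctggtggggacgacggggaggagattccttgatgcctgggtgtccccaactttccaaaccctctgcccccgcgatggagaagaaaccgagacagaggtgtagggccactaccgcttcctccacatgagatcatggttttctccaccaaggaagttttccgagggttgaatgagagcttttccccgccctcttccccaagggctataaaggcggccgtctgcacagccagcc
Nfkbia, chr12:55492648-55492897, minus strand: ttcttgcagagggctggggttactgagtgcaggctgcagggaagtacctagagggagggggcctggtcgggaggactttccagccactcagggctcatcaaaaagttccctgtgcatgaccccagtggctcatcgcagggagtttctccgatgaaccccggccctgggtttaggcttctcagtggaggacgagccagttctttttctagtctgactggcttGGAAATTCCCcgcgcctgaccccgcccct
Tnfrsf1b, chr4:145246871-145247120, minus strand: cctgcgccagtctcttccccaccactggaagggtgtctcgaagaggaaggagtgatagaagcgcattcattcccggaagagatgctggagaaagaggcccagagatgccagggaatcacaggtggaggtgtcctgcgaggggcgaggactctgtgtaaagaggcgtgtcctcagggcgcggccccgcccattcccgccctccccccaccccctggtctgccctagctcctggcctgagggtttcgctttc
Tnfaip3, chr10:19015411-19015660, minus strand: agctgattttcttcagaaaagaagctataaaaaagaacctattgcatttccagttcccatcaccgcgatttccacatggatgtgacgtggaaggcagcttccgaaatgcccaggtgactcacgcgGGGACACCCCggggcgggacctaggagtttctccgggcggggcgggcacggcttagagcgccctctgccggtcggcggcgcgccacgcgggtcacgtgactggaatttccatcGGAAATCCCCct
The Nfkbia window holds 1 match, which begins 29 bases before the start. The Tnfaip3 window shown holds 2, which begin 125 and 12 bases before the start, and the window of a second Tnfaip3 start holds none. Windows of this length were found for 8 members with 11 starts. Matches lay in 6 of the 11 windows, which belonged to 4 members, Nfkb2, Rel, Nfkbia and Tnfaip3. Of all 32851 windows, 7.25% held a match. A match is a description of the letters and not a site of binding, and windows without one say nothing of NF-κB. Nfkb1 and Nfkbiz had no window.

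Macrophage libraries held 12170686 to 21433841 estimated counts, and microglia libraries 8648751 to 18768238. Cd163 was at 0 or 1 count in every CD163KO macrophage library and between 748 and 5280 counts in WT macrophages. In microglia, where it was low, it did not follow the genotype, with 5 to 23 counts in the CD163KO libraries and 0 to 101 in the WT libraries, so it does not check the labels of microglia. The 12 microglial markers summed to between 18900 and 45300 FPKM in microglia and to at most 2820 FPKM in macrophages, and the 12 markers of border-associated macrophages to at least 1960 FPKM in macrophages and at most 171 FPKM in microglia. The 12 neutrophil markers summed to between 22200 and 135000 FPKM in macrophage libraries and to between 1060 and 2880 FPKM in microglia. In bulk RNA, fewer cells of a type and less RNA per cell cannot be told apart. The male WT PFF and male CD163KO MONO libraries stood apart in both populations. Their 10 most abundant transcripts took 15.4% of the counts in macrophages, against 38% to 60.4% in the other 6 macrophage libraries, and 57.2% and 46.0% in microglia, against 13.4% to 16.1% in the other 6. The microglia library labelled female CD163KO MONO held 799 counts of Y-linked genes, against at most 2 in the other female libraries. The macrophage library of the same combination held 0. Values without these combinations stand beside several of the results.

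FPKM, which divides counts by the length of the transcript and by the assigned reads of the library, allowed levels to be compared between genes. Nfkbia, the gene of the inhibitor IκBα, had the highest level of the 10 in all 16 libraries, with a lowest, median and highest FPKM of 105, 180.0 and 288 in macrophages and 49.5, 135 and 308 in microglia. At the other end, Rel, which encodes the subunit c-Rel, had the lowest level in 7 of 8 macrophage and 7 of 8 microglia libraries, with medians of 0.63 and 3.19 FPKM. Between these ends the order differed between the populations. In microglia the receptor genes Tnfrsf1b (median 67.8 FPKM) and Tnfrsf1a (median 65.1 FPKM) followed Nfkbia, their ranges overlapped almost whole, and Tnf lay at rank 5 or lower in every library. In macrophages Rela (median 41.1 FPKM) and Tnfrsf1a (median 27.4 FPKM) followed, while Nfkbiz, Tnf and Tnfrsf1b (medians 18.4, 13.5 and 12.4 FPKM) lay close together within overlapping ranges.

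**Figure D1:**
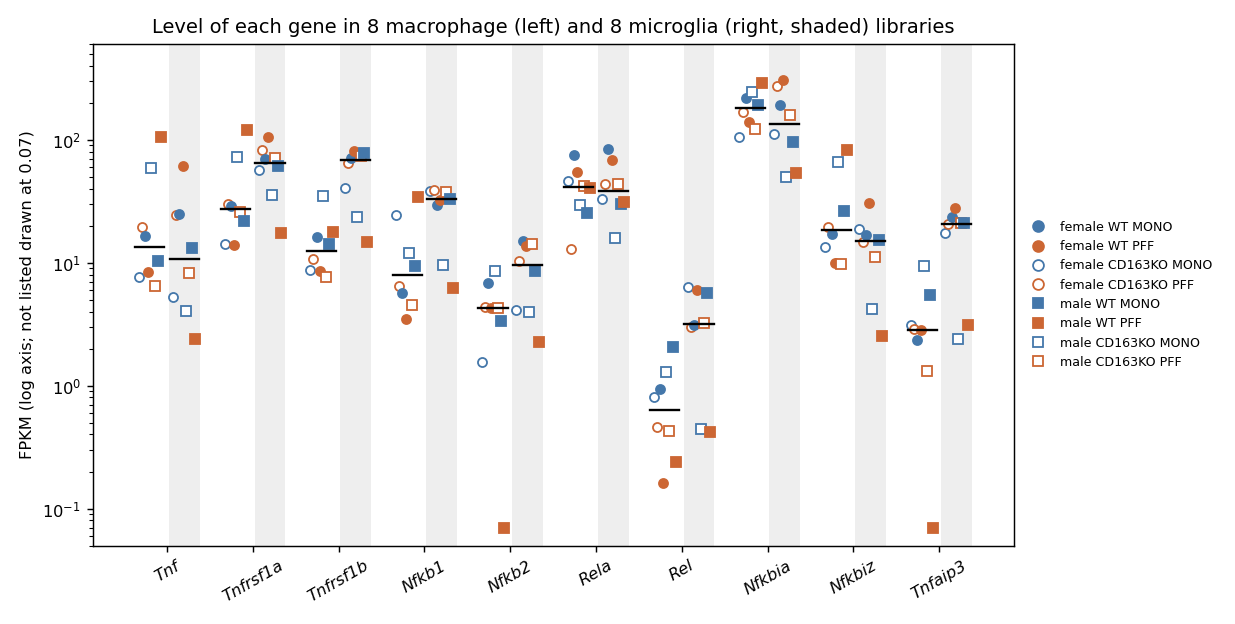
Level of the 10 genes in FPKM (log axis) in each of 8 macrophage libraries (left of each gene) and 8 microglia libraries (right, shaded), where points are libraries and lines are medians. Nfkbia is highest in every library, and Nfkb2 and Tnfaip3, not listed in male WT PFF macrophages, are drawn at 0.07.

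Whether the sorted populations differ in these genes was asked first, with the combination as a block, so that each macrophage library was set against the microglia library of the same sex, genotype and treatment. On counts scaled by TMM (the trimmed mean of M values, which evens out the bulk of genes), 4 of the 10 members were called at an adjusted p of at most 0.05, 3 higher and 1 lower in macrophages. Over all 12301 genes tested, 21.3% were called, 13.4% higher and 7.87% lower. At an unadjusted p under 0.05 there were 5 members and 33.9% of genes, and DESeq2 called 5 members and 38.5% of genes. Nfkbiz, Nfkbia and Tnf were higher and Tnfrsf1b was lower in macrophages. The scaling decides how these directions read, which is shown after the values.

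Tnf, the ligand, had FPKM of 7.58, 16.6, 58.5 and 10.4 in macrophages of female CD163KO, female WT, male CD163KO and male WT mice given MONO. With PFF, in the same order, its FPKM were 19.4, 8.36, 6.41 and 105. In microglia it had FPKM of 5.25, 24.7, 4.01 and 13.1 with MONO and 24.6, 61.4, 8.18 and 2.37 with PFF. The high macrophage values were those of the 2 combinations that stood apart, and these had the lowest microglial values. The ranges of the populations overlapped with and without these combinations. Without them Tnf had 6.41 to 19.4 FPKM in macrophages and 5.25 to 61.4 FPKM in microglia. After TMM scaling Tnf was higher in macrophages in 6 of 7 pairs, the exception being female WT PFF (41.1 against 50.4 CPM), and on FPKM in 2 of 7. The log2 fold change was 1.58 ± 0.48 (SE, 14 libraries; edgeR quasi-likelihood test, adjusted p = 0.0385). This call was lost when any of 5 of the 7 combinations was left out (adjusted p between 0.0606 and 0.107) and when genes with low counts were kept.

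The receptor genes were next. Tnfrsf1b (TNFR2) had a lowest, median and highest FPKM of 7.70, 12.4 and 34.5 in macrophages and 14.7, 67.8 and 80.3 in microglia. Its macrophage level was lower in each of 7 pairs after TMM scaling and in 6 of 7 on FPKM, and the low microglial values were those of male WT PFF and male CD163KO MONO. The log2 fold change was -0.84 ± 0.20 (SE, 14 libraries; edgeR quasi-likelihood test, adjusted p = 0.0125). It was lower in macrophages under every scaling and with any combination left out. Tnfrsf1a (TNFR1) had FPKM of 14, 27.4 and 119 in macrophages and 17.4, 65.1 and 105 in microglia as lowest, median and highest. Its ranges overlapped, and the log2 fold change of 0.28 ± 0.22 did not pass the test (edgeR, adjusted p = 0.408).

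Of the NF-κB subunit genes none was called. Rela, which encodes the transactivating subunit p65, had 12.9, 41.1 and 75.6 FPKM in macrophages and 15.8, 38.5 and 84.6 FPKM in microglia as lowest, median and highest, almost the same range. On TMM-scaled counts its log2 fold change was 1.20 ± 0.46 (SE, 14 libraries; edgeR, adjusted p = 0.0875), and it was called without male WT PFF (1.58, adjusted p = 0.00382) and by DESeq2 (1.13, adjusted p = 0.0428). Nfkb1 (p105/p50) had medians of 7.91 FPKM in macrophages and 32.7 FPKM in microglia, with a log2 fold change of -0.24 ± 0.33 (edgeR, adjusted p = 0.642). The high macrophage values of Nfkb1, 34.1 FPKM in male WT PFF and 24.6 FPKM in female CD163KO MONO, reached the range of microglia, and with both combinations left out, an alternative added after seeing the data, Nfkb1 was called lower (-0.76, adjusted p = 0.0073). Nfkb2 (p100/p52) had medians of 4.25 and 9.49 FPKM and Rel of 0.63 and 3.19 FPKM in macrophages and microglia, with log2 fold changes of -0.02 ± 0.91 and -1.13 ± 0.78 (edgeR, adjusted p = 0.988 and 0.339). Nfkb2 was not listed, and so taken as 0, in male WT PFF macrophages, the library that listed the fewest transcripts (9524).

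The inhibitor and feedback genes held both extremes. Nfkbiz, which encodes the nuclear IκBζ that cooperates with NF-κB at secondary response genes, had 9.76, 18.4 and 81.9 FPKM in macrophages and 2.54, 15.1 and 30.6 FPKM in microglia as lowest, median and highest. After TMM scaling its macrophage levels in the 7 combinations, 84.4 to 221 CPM, all lay above the microglial ones, 20.3 to 56.1 CPM. The log2 fold change was 1.96 ± 0.28 (SE, 14 libraries; edgeR quasi-likelihood test, adjusted p = 0.000497). Nfkbia behaved alike, at 333 to 666 CPM against 74.0 to 243 CPM, with a log2 fold change of 1.58 ± 0.23 (SE, 14 libraries; edgeR, adjusted p = 0.000498). Such a gap with all macrophage libraries higher was found for 8.35% of all genes on TMM-scaled CPM. Tnfaip3 (A20) took the opposite side, with 0, 2.85 and 9.47 FPKM in macrophages and 2.37, 20.7 and 27.6 FPKM in microglia. Its log2 fold change of -1.56 ± 0.86 did not pass the test (SE, 14 libraries; edgeR, adjusted p = 0.233). It was called without male WT PFF, whose macrophage library did not list it (-1.06, adjusted p = 0.00443).

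Both scaling and members have to be read against all genes. A few transcripts took much of the counts of most macrophage libraries, and the median gene differed by -0.31 (log2, macrophages minus microglia) after TMM scaling and by -1.95 when counts were divided by library totals alone. With library totals 6237 genes (50.7%) were called, of which 9.44% were higher in macrophages, against 63% of the calls after TMM scaling. The members called were then Tnfaip3 (-3.41), Rel (-2.50), Tnfrsf1b (-2.30), Nfkb2 (-1.88) and Nfkb1 (-1.83), all lower in macrophages, while Nfkbiz (0.33), Nfkbia (0.14) and Tnf (-0.10) were not. Tests on log2(FPKM + 1) called 51.4% of genes and, of the members, Tnfaip3, Tnfrsf1b, Rel and Nfkb2, all lower. Relative to the median gene, the positions moved less between both scalings of the counts, as a change of scaling shifts all genes of a library alike. Nfkbiz lay 2.27 above it under both scalings, Nfkbia 1.89 and 2.09, and Tnf 1.89 and 1.85 (log2, TMM and library totals), and Tnfaip3 lay 1.25 and 1.46 below it (relative values -1.25 and -1.46). Tnfrsf1b lay nearer, at -0.53 and -0.35. On log2(FPKM + 1) the positions differed more, with Nfkbiz at 1.51, Nfkbia at 1.18, Tnf at 1.17, Tnfaip3 at -1.49 and Tnfrsf1b at -1.14.

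**Figure D2:**
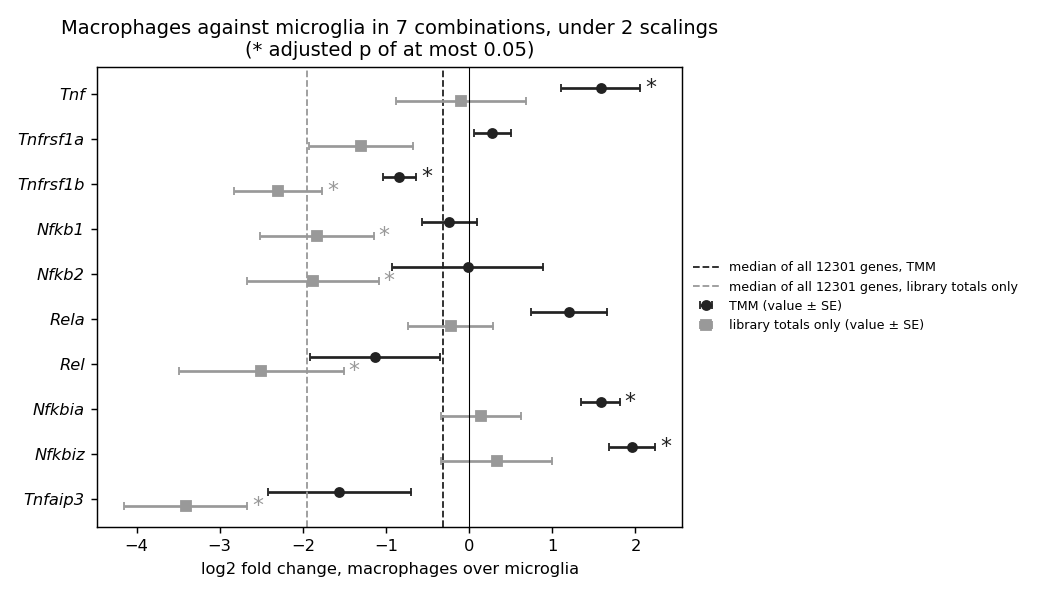
Log2 fold change of each gene (macrophages over microglia, 7 combinations, value ± SE) after TMM scaling (circles) and with library totals alone (squares), with the median of all genes under each as a dashed line and * for an adjusted p of at most 0.05. The 10 genes keep much the same distance from the dashed line of their own scaling, while their side of 0 depends on the scaling for Tnf, Tnfrsf1a and Rela.

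Ratios between members within 1 library do not depend on the scaling of libraries, and they are given as a description without a test. Tnfrsf1a exceeded Tnfrsf1b in FPKM by 1.55 to 6.73 times (median 1.96) in 8 macrophage libraries and stood at 0.781 to 1.51 times (median 1.23) in microglia. No value was shared, and the ratio was higher in macrophages in all 8 combinations. Tnf stood at 0.738 to 5.97 times Tnfrsf1b in macrophages and at 0.111 to 0.765 times in microglia, again higher in macrophages in 8 of 8 pairs, with a narrow overlap between male WT MONO macrophages and female WT PFF microglia. Nfkbiz stood at 3.52 to 7.39 times Tnfaip3 in 7 macrophage libraries that listed Tnfaip3 and at 0.526 to 1.76 times in 8 microglia libraries. Nfkbia stood at 25.7 to 93.6 times Tnfaip3 in macrophages and at 4.62 to 20.9 times in microglia. Neither of these ratios overlapped between the populations in the libraries that had one. Among all pairs of 6577 genes above 0 in every library, 13.4% had ratios without overlap between the populations, and the pairs given here were chosen with the levels known. Tnfaip3, not listed in male WT PFF macrophages, is not among these genes, so this share does not cover its ratios. The ratio of Nfkbia to its fellow NF-κB target Tnf went in either direction, from 2.74 to 19.2 (median 13.4) in macrophages and from 5.01 to 22.7 (median 11.8) in microglia, with a higher value in macrophages in 3 of 8 pairs.

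**Figure D3:**
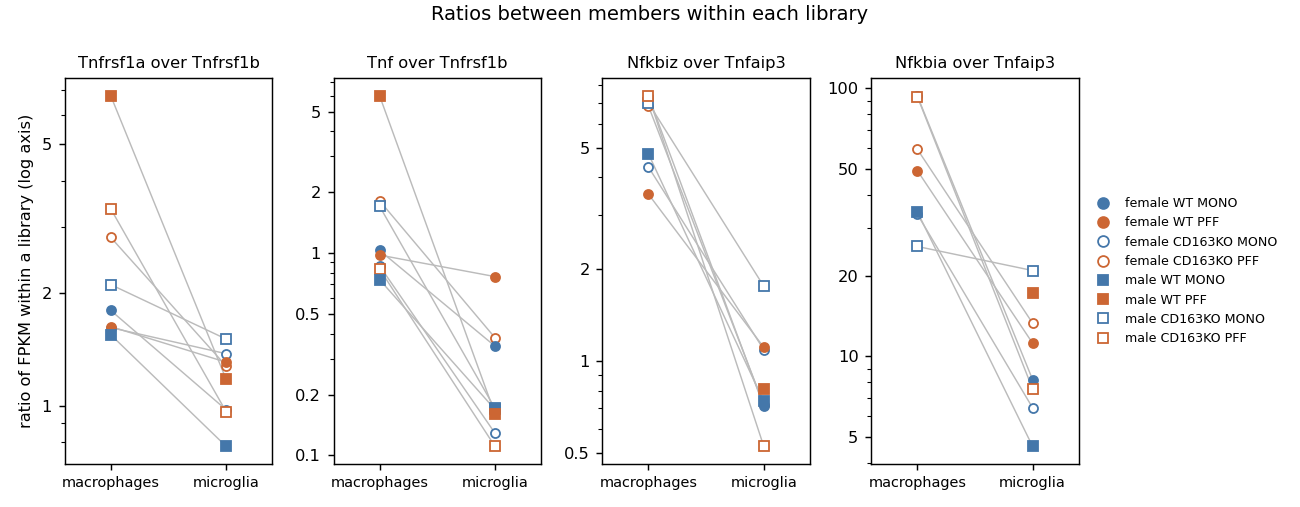
Ratio of the FPKM of 2 members within each library (log axis), with a line joining the macrophage and microglia libraries of a combination. All 8 lines fall from macrophages to microglia for Tnfrsf1a over Tnfrsf1b and Tnf over Tnfrsf1b, as do the 7 for Nfkbiz and Nfkbia over Tnfaip3, where male WT PFF macrophages have no ratio.

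Other genes of the pathway were counted from lists of the TNF receptor complex, of further NF-κB family members and brakes, of NF-κB target genes and of TNF superfamily ligands. All counts are to be read against the shares over all genes, 13.4% higher and 7.87% lower after TMM scaling and 4.79% higher and 45.9% lower with library totals. Of 21 target genes tested, 13 were higher and 1 was lower in macrophages after TMM scaling, with a median log2 fold change of 2.08 against -0.31 for all genes. The neutrophil chemoattractant Cxcl2 (6.80) and the T cell chemokine Ccl5 (5.72) had the largest changes, the maturation marker Cd83 (0.97) the smallest change among the higher genes, and Il1a (-4.71), the interleukin-1α gene, was lower. With library totals 8 target genes were higher and 3 were lower. Of 22 genes of the receptor complex, 1 was higher, the adaptor gene Traf1 (7.21), and 4 were lower, Tab3 (-4.64), Chuk (-1.52) and Tab2 (-1.49) of the kinase complexes and Adam17 (-1.35), whose product sheds TNF and its receptors. The median of this list was -0.45, and with library totals 15 of its 22 genes were lower, where 45.9% of all genes were. Among 14 NF-κB family members and brakes, Zfp36 (1.95), whose product destabilises Tnf mRNA, was higher and Tnip2 (-1.15), a binding partner of A20, was lower. With library totals Zfp36 was not called and 5 genes of this list were lower. Of 8 superfamily ligands tested, Tnfsf14, Tnfsf9 (4.71), Ltb (2.98) and Tnfsf13 (2.76) were higher. Tnfsf14 had 321 counts in 7 macrophage libraries and 0 in microglia, which makes it at least 91.8-fold higher with library totals and at least 230-fold higher after TMM scaling, against 3 counts over the group. With library totals Tnfsf14 and Tnfsf9 were called. The neutrophil, monocyte and NK or T cell markers differed in the same comparison, with 11 of 12, 7 of 8 and 5 of 8 tested genes higher in macrophages (the neutrophil list also held Csf3r, which was lower), and their part in the members' values was not tested.

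Whether fibrillar α-syn changed these genes was asked within each population, with sex and genotype as covariates. In microglia no member was called for PFF against MONO (edgeR, 0 of 11370 genes, 0%), and 3 members had an unadjusted p under 0.05, Nfkbia, Tnf and Tnfrsf1a, against 6.35% of all genes. Nfkbia was at 86.9 CPM (female CD163KO), 142 CPM (female WT) and 74.0 CPM (male WT) with MONO and at 217, 243 and 194 CPM in mice of the same sex and genotype given PFF, with 127 CPM in male CD163KO given PFF. On this scale it was higher with PFF in 3 of 3 pairs, while on FPKM it was higher in 2 of 3 and lower in WT males (53.7 FPKM with PFF against 96.4 FPKM with MONO). The 127 CPM of male CD163KO PFF lay below the 142 CPM of female WT MONO. The log2 fold change was 1.17 ± 0.30 (SE, 7 libraries; edgeR, adjusted p = 0.754). DESeq2 called 30 genes (0.264%) and Nfkbia among them (1.14, adjusted p = 0.0208). Over the other alternatives and with each library left out its value lay between 0.56 and 1.39, always above 0, without a call.

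Tnf in microglia was at 4.27, 19.0 and 10.5 CPM with MONO and at 20.2, 50.4 and 8.89 CPM with PFF in female CD163KO, female WT and male WT, and at 6.81 CPM in male CD163KO given PFF. It was higher with PFF in both pairs of females and lower in the pair of WT males. The log2 fold change was 1.23 ± 0.49 (SE, 7 libraries; edgeR, adjusted p = 0.754). It was 0.63 without female CD163KO MONO, the library with Y-linked counts, and lay between 0.63 and 1.74 as single libraries were left out. Tnfrsf1a was at 60.9, 71.4 and 64.5 CPM with MONO and at 89.8, 115, 87.3 and 79.1 CPM with PFF, without overlap between the treatments. All PFF libraries lay above all MONO libraries in this way for 5.69% of genes, and the MONO library left out by the study had 94.1 CPM, within the range of PFF. Its log2 fold change was 0.58 ± 0.24 (SE, 7 libraries; edgeR, adjusted p = 0.754), and on log2(FPKM + 1) it was -0.01. For the other 7 members the log2 fold change lay between -0.46 (Rel) and 0.80 (Rela). The 12 immediate early genes, which respond to tissue dissociation among other stimuli, summed to 4170 FPKM in female WT PFF microglia, the library with the most Tnf, and to 491 to 2910 FPKM in the other microglia libraries. All 12 had values above 0 for PFF against MONO in microglia, with a median log2 fold change of 0.90 (0.35 to 1.47) against 0.11 for all genes, and none was called. The 12 microglial markers were at 0.64 (0.08 to 1.26). The part of either list in these values was not tested.

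In macrophages no member was called for PFF against MONO (edgeR, 0 of 10427 genes, 0%), and none had an unadjusted p under 0.05, against 1.21% of genes. DESeq2 called 5 genes (0.048%) and no member. Tnfrsf1a had the smallest p, at 67.4, 88.7 and 53.2 CPM with MONO and 105, 91.8, 191 and 135 CPM with PFF, without overlap, as for 2.09% of genes. Its log2 fold change was 0.86 ± 0.43 (SE, 7 libraries; edgeR, adjusted p = 1). It was 0.38 without male WT MONO, 0.62 without male WT PFF and 0.32 without both male WT PFF and female CD163KO MONO. The MONO library left out by the study had 99.6 CPM, within the range of PFF. Tnf was at 26.9, 38 and 18.9 CPM with MONO and at 50.4, 41.1, 127 and 25.0 CPM with PFF. It was higher with PFF in 3 of 3 pairs on this scale and in 2 of 3 on FPKM. The 127 CPM of male WT PFF stood out, and the 25.0 CPM of male CD163KO PFF lay within the MONO values. The MONO library left out by the study had 60.0 CPM of Tnf. The log2 fold change of Tnf was 1.20 ± 0.68 (SE, 7 libraries; edgeR, adjusted p = 1). It was 0.53 without male WT PFF and 0.13 without both male WT PFF and female CD163KO MONO. Nfkbia on TMM-scaled CPM was higher with PFF in 3 of 3 pairs in macrophages, with nearly equal values in WT males (335 against 333 CPM), and on FPKM in 2 of 3. Its log2 fold change was 0.39 ± 0.33 (edgeR, adjusted p = 1). Rel, at 1.88, 1.28, 0.449 and 2.65 CPM with PFF and 4.48, 3.41 and 5.89 CPM with MONO, did not overlap, as for 3.47% of genes. Its log2 fold change was -1.86 ± 1.68 (edgeR, adjusted p = 1). In this comparison the immediate early genes had a median log2 fold change of 0.83 (-0.16 to 1.44), against -0.11 for all genes. The neutrophil markers were at -0.72 (-1.15 to 0.46) and 9 choroid plexus markers at -1.42 (-2.16 to 1.42). No gene of these lists was called, and their part in the values of the members was not tested.

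**Figure D4:**
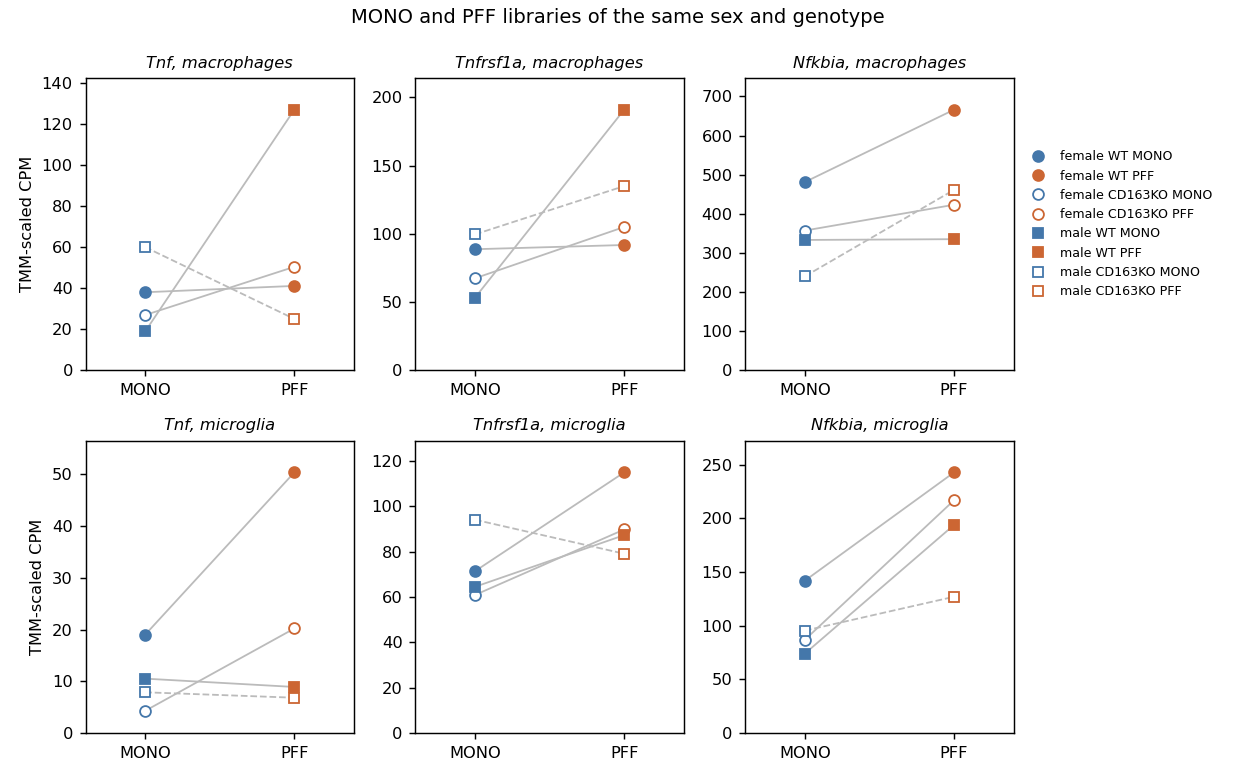
TMM-scaled CPM of Tnf, Tnfrsf1a and Nfkbia with MONO and PFF in macrophages (top) and microglia (bottom), with a line for each sex and genotype, dashed for male CD163KO, whose MONO library the study left out. On this scale Nfkbia is higher with PFF in every line of both populations, by little in WT male macrophages, and Tnf of microglia is higher in both lines of females but not in males.

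The direct test of whether the PFF effect differed between macrophages and microglia called no member (edgeR, 0 of 12301 genes, 0%; unadjusted p under 0.05 for 0 members and 1.07% of genes; DESeq2 called 26 genes (0.211%) and no member). The smallest p were those of Nfkbia (-0.80 ± 0.48), Rela (-0.92 ± 0.99) and Tnfaip3 (-1.71 ± 2.12), given as the PFF effect in macrophages minus that in microglia (log2 ± SE, adjusted p = 1 for each).

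Deletion of Cd163 was compared next. In microglia no member was called for CD163KO against WT (edgeR, 0 of 11370 genes, 0%), while Tnf and Rela had an unadjusted p under 0.05, against 1.1% of genes. DESeq2 called 2 genes (0.0176%) and no member. On TMM-scaled CPM Tnf was lower in CD163KO in 3 of 3 pairs, at 4.27 against 19.0 CPM in females given MONO, 20.2 against 50.4 CPM in females given PFF and 6.81 against 8.89 CPM in males given PFF. The genotypes overlapped, since the 20.2 CPM of female CD163KO PFF lay above 3 of the 4 WT libraries. On FPKM Tnf was lower in 2 of 3 pairs, and the pair of males given PFF turned (8.18 FPKM in CD163KO against 2.37 FPKM in WT, a library that stood apart). The log2 fold change was -1.52 ± 0.49 (SE, 7 libraries; edgeR, adjusted p = 1). Over the alternatives and with each library left out it lay between -1.90 and -0.95, the latter without female CD163KO MONO. Rela was lower in CD163KO in 3 of 3 pairs as well, at 44.7, 59.7 and 60.7 CPM against 108, 92.8 and 193 CPM, but male WT MONO had 39.6 CPM. On FPKM it was lower in 2 of 3 pairs, with 43.9 FPKM in CD163KO against 30.9 FPKM in WT for males given PFF. Its log2 fold change was -1.09 ± 0.43 (SE, 7 libraries; edgeR, adjusted p = 1). It was -0.62 without male WT PFF and -0.21 without both male WT PFF and female CD163KO MONO. Nfkb1 lay in a narrow range in CD163KO, 78.6 to 80.8 CPM, above all WT libraries, 57.8 to 67.9 CPM, as for 2.57% of genes, by 0.32 ± 0.24 on the log2 scale (edgeR, adjusted p = 1). The library left out by the study had 48.6 CPM, below all of them. Over treatment, genotype and sex in both populations, on FPKM and on TMM-scaled CPM, 24 such checks for groups without overlap were made in either direction, and 6 of them held a member. The share of all genes without overlap lay between 0.0792% and 8% in these checks. Nfkbia was at -0.48 ± 0.29 (edgeR, adjusted p = 1). In the same comparison the immediate early genes had a median log2 fold change of -0.53 (-1.49 to 0.05) and the microglial markers one of -0.54 (-1.02 to -0.28), against -0.02 for all genes, with none of either list called. Their part in the values of the members was not tested.

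In macrophages 1 gene, Cd163, was called for CD163KO against WT (edgeR, 0.00959% of 10427 genes), and no member had an unadjusted p under 0.05, against 0.729% of genes. DESeq2 called 1 gene (0.00959%) and no member. The log2 fold changes of the members lay between -0.78 ± 0.68 (Tnf) and 0.84 ± 1.67 (Rel), with -0.31 ± 0.42 for Nfkbiz. Tnf was at -0.12 without male WT PFF and -1.23 without female CD163KO MONO. Nfkb1 was at 223, 43.2 and 45.2 CPM in CD163KO and at 33.0, 43.4, 43.4 and 105 CPM in WT. The 223 CPM of female CD163KO MONO stood above all others, and the log2 fold change of 0.79 ± 0.84 turned to -0.62 without it (edgeR, adjusted p = 1 and 0.98). Nfkb1 also had the smallest p of the members in the test of whether the PFF effect differed between genotypes, while Nfkb2 had a larger estimate with a wider error (3.95 ± 4.98). In females Nfkb1 was lower with PFF in CD163KO (43.2 against 223 CPM) and close to MONO in WT (43.4 against 33.0 CPM), and in WT males it was higher with PFF (105 against 43.4 CPM). The difference of effects, CD163KO minus WT, was -3.44 ± 0.90 (SE, 7 libraries, 2 residual degrees of freedom; edgeR, adjusted p = 1). It was the 1 member of 10 with an unadjusted p under 0.05, against 0.432% of genes, and CD163KO had no pair of males. DESeq2 called 10 genes (0.0959%) and no member. Nfkbiz (-0.93 ± 0.86) and Tnf (-1.06 ± 1.32) followed by p (edgeR, adjusted p = 1 for both), and Tnf turned to 0.79 without male WT PFF. Without female WT PFF 3 members were called, Nfkb1 among them (-3.76, adjusted p = 2.23e-05), in a fit with 1 residual degree of freedom that called 3593 genes.

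In microglia the same test of genotype and treatment called no member (edgeR, 0 of 11370 genes, 0%), and no member had an unadjusted p under 0.05, against 3.83% of genes. DESeq2 called 29 genes (0.255%) and no member. The smallest p were those of Nfkb2 (1.60 ± 0.85), Tnf (1.63 ± 0.91) and Tnfrsf1b (0.67 ± 0.64), as log2 ± SE over 7 libraries (edgeR, adjusted p = 0.943, 0.943 and 0.951). With library totals they were at 3.03, 2.89 and 2.05, and on log2(FPKM + 0.1) at 3.03, 3.16 and 2.22. In the fits over 7 libraries CD163KO MONO was given by 1 library, that of females, which held Y-linked counts. With all 8 combinations Nfkb2 was at 0.77, Tnf at -0.03 and Tnfrsf1b at 0.43. Whether the effect of CD163KO differed between macrophages and microglia was tested as well, and again no member was called (edgeR, 0 of 12301 genes, 0%; unadjusted p under 0.05 for 0 members and 0.772% of genes; DESeq2 called 22 genes (0.179%) and no member). The smallest p were those of Rela (0.80 ± 1.00), Tnf (0.88 ± 1.11) and Tnfaip3 (1.55 ± 2.11), each smaller than its SE, and Rela and Tnf changed sign when single combinations were left out.

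**Figure D5:**
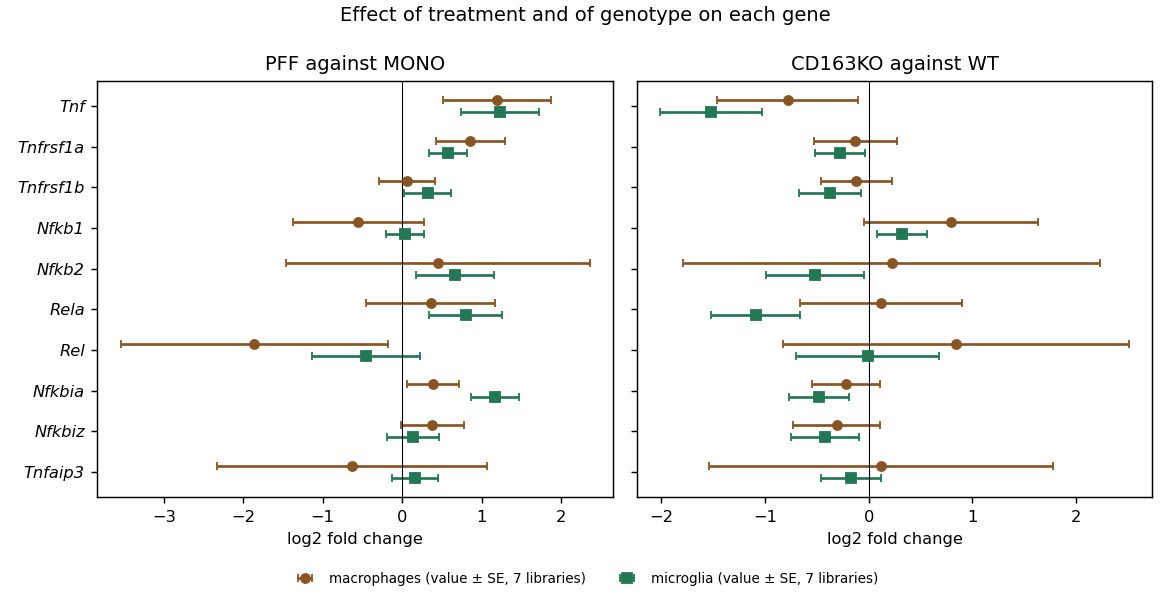
Log2 fold change ± SE of each gene for PFF against MONO (left) and CD163KO against WT (right) in macrophages (circles) and microglia (squares), 7 libraries each. No value passed the adjusted threshold, and the smallest unadjusted p among them is that of Nfkbia with PFF in microglia, 0.00301.

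Sex entered each of these fits as a covariate. In microglia no member was called for males against females (edgeR, 0 of 11370 genes, 0%), and Tnf and Nfkbia had an unadjusted p under 0.05, against 1.67% of genes. DESeq2 called 15 genes (0.132%) and no member. Tnf was at 4.27, 20.2, 19.0 and 50.4 CPM in females and at 6.81, 10.5 and 8.89 CPM in males. The male values lay between the lowest and the next female value, and Tnf was lower in males in 3 of 3 pairs, by -1.37 ± 0.46 on the log2 scale (SE, 7 libraries; edgeR, adjusted p = 0.999). Nfkbia was at 86.9 to 243 CPM in females and 74.0 to 194 CPM in males, lower in males in 3 of 3 pairs, with a log2 fold change of -0.65 ± 0.29 (SE, 7 libraries; edgeR, adjusted p = 0.999). Nfkbiz followed, at -0.73 ± 0.33 (edgeR, adjusted p = 0.999). The female library with Y-linked counts holds the lowest Tnf value of the females, and without it the value for Tnf was -1.63. Without male WT PFF it was -1.02. In the same comparison the immediate early genes had a median log2 fold change of -0.37 (-1.28 to 0.23), against 0.01 for all genes. The microglial markers were at 0.50 (-0.05 to 2.08) and the neutrophil markers at 1.46 (-1.38 to 2.03). No gene of these lists was called, and their part in the values of the members was not tested. In macrophages no member was called or had an unadjusted p under 0.05 (edgeR, 0 of 10427 genes, 0%; 1.37% of genes), and the log2 fold changes lay between -1.07 ± 1.70 (Tnfaip3) and 0.25 (Nfkb1 and Rel). The smallest p were those of Nfkbia (-0.43 ± 0.32), Tnfrsf1b (-0.46 ± 0.34) and Rela (-1.06 ± 0.86). DESeq2 called 16 genes (0.153%) there and no member.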

How the data were processed

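The authors mapped reads with Bowtie2 and estimated expression with RSEM, and the submitters' notes name mm10. Each deposited table lists RefSeq transcripts above 0 with estimated counts, which are not normalized, and FPKM, which the authors scaled to transcript length and assigned reads. Whether a table pools the triplicates is not stated. Batches 1 and 2, groups of mice named in the study's description, are not tied to libraries, so batch and group cannot be told apart. Transcripts were summed to 18576 genes with RefSeq symbols of GRCm38.p6 (27627 of 27787 named, the rest at most 0.14% of counts). A transcript that a table does not list was given 0. Reads shared by transcripts of a gene stay within it.

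Estimated counts were rounded and tested with edgeR 4.0.16 (TMM scaling, quasi-likelihood test, Benjamini-Hochberg adjustment over all genes, R 4.3.3), keeping genes with a CPM of at least 1 in 3 libraries. SE is the log2 fold change divided by the root of F. Macrophages and microglia were compared in 14 libraries with the combination of sex, genotype and treatment as a block, and 7 libraries per population were compared with sex, genotype and treatment as terms. The libraries are the replicates, 1 for each combination, so p-values measure the spread between combinations. TMM-scaled CPM of single libraries were scaled over all 16, while each test was scaled within its own libraries. In total 11 comparisons were made. The alternatives were DESeq2, other scalings and filters, limma on log2(FPKM + 1) and log2(FPKM + 0.1), all 8 combinations, no replicate block and leaving out each combination. The fits were tested on simulated data.

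The members and the gene lists were chosen with earlier results of these data known. Every member is named with its levels. For each comparison the members called are named, or where fewer than 3 were called, those with the 3 smallest p as well. From a list, the 2 highest and 2 lowest fold changes among the genes called are named, and the 5 genes most like Tnf by Pearson's r. Other names (Tnfrsf1a, Rel and Nfkb1 where groups did not overlap, further called list genes) were added after their values were seen. PCR copies count as separate reads, so a floor of 3 counts covers counting error only.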

Additional observations from a re-analysis of the deposited data

How the results depend on the processing

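The count of members called between macrophages and microglia was 4 and lay between 3 and 6 when single combinations were left out. Over the same fits the count of all genes called lay between 1892 and 4924, against 2616 in the main test. It was 7 without both male WT PFF and female CD163KO MONO, an alternative added after seeing the data in which the share of all genes called rose from 21.3% to 36.4%. The block paired macrophages and microglia of the same sex, genotype and treatment. For female CD163KO MONO, Y-linked counts were 0 in macrophages and 799 in microglia, and the source of these counts was not tested. Without the block 4 members and 24.1% of all genes were called, and Nfkb1 and Nfkb2 changed sign (0.04 and 0.27). Nfkb2 also did so with a CPM of at least 5 (0.02), without male WT PFF (0.47) and without both (0.42). With library totals Tnf (-0.10), Rela (-0.22) and Tnfrsf1a (-1.30) changed sign, as did Rela and Tnfrsf1a on log2(FPKM + 1) (-0.23 and -1.08) and log2(FPKM + 0.1) (-0.24 and -1.10), and Tnfrsf1a without the filter on low counts (-0.07). All genes called rose from 2616 to 4731 with DESeq2, 6237 with library totals, 6319 and 6463 on FPKM, 4924 without male WT PFF and 4401 without both.

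For PFF in microglia DESeq2 called 1 member, and Tnfrsf1a was at -0.01 and -0.02 on FPKM. For the PFF effect by genotype in macrophages 0 to 3 members were called as single libraries were left out, and Tnf ranged from -1.82 to 0.79 (without male WT PFF). In microglia Tnf was at -0.03 with all 8 combinations. For CD163KO in macrophages Nfkb1 ranged from -0.62 (without female CD163KO MONO) to 1.72, Nfkbiz from -0.67 to 0.15 (without male CD163KO PFF), and Tnf and Nfkb1 at 0.27 and -0.11 without both doubted combinations. In microglia Nfkbia was at 0.03 with library totals and 0.06 on both FPKM scales. For sex in macrophages Nfkbia and Tnfrsf1b were at 0.14 and 0.13 with library totals, 0.18 and 0.15 on log2(FPKM + 1) and 0.18 and 0.16 on log2(FPKM + 0.1), and Rela ranged from -2.30 to 0.17 (without female WT PFF) and was at 0.17 without both doubted combinations. For the PFF effect between populations Tnfaip3 ranged from -4.60 to 0.15 (without male WT MONO), and Rela and Tnfaip3 at 1.52 and 0.65 without both. For the CD163KO effect between populations Rela was at -0.20 with library totals, -0.17 and -0.19 on FPKM, from -0.58 (without male CD163KO PFF) to 2.32 with single combinations left out and -1.67 without both. Tnf was at -0.07 and -0.12 on FPKM and between -0.16 (without female CD163KO MONO or female WT PFF) and 1.81 with single combinations left out. Tnfaip3 was at -0.12 on log2(FPKM + 1) and -0.89 without both. None of these values with a changed sign was called, and the cause was not tested.

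The genotype and treatment test could not be fitted without female CD163KO MONO. With 1 library for each combination, comparisons without calls do not show equal levels.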

Other observations

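The genes whose levels followed Tnf most closely were searched over all genes with log2(TMM-scaled CPM + 1) in the 8 libraries of a population, as a description without a test. In microglia, among 11450 genes, they were Amer2 (Pearson's r = 0.936), Zdhhc9 (0.934), Nr4a1 (0.93), Ier3 (0.929) and Ccrl2 (0.928), and r lay between 0.755 and 0.909 without the 2 libraries farthest from the median of Tnf. In macrophages, among 10607 genes, they were Zc3h14 (0.984), Gpr165 (0.983), Zfp983 (0.972), Racgap1 (0.971) and Tmem120b (0.966), with r between 0.892 and 0.971 without the 2 farthest libraries. All of these libraries share their scaling, and depth and the share taken by the most abundant transcripts differ among them. Of the members, Nfkbiz had r with Tnf of 0.863 in macrophages and 0.667 in microglia, and 0.776 and 0.839 without the 2 farthest libraries. Rel had r of -0.886 in macrophages (-0.59 without the 2 libraries) and 0.19 in microglia, and in macrophages Tnfaip3 and Nfkb2 had r of -0.722 and -0.614 (0.251 and 0.00405). Nfkbia had r of -0.219 in macrophages and 0.708 in microglia (0.441 without the 2 libraries). The r of Tnfrsf1a, 0.762 and 0.644, rested on those libraries, since it was 0.0482 and -0.144 without them.

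The immediate early genes, 12 in all, were counted in the comparison of populations too. After TMM scaling 8 of them were higher and none was lower in macrophages (median log2 fold change 1.36 against -0.31 for all genes), from Fos (3.26) and Nr4a1 (3.24) to Klf6 (1.03) and Egr1 (0.80). With library totals Dusp1, Fos and Nr4a1 were higher, and Atf3 and Jun were lower. Their summed level was 2470 to 7030 FPKM in macrophages and 491 to 4170 FPKM in microglia.

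Libraries of male CD163KO mice given MONO, not used by the study, had 60.0 CPM of Tnf in macrophages and 7.86 CPM in microglia. Nfkbiz was at 151 and 18.1 CPM, Tnfrsf1b at 108 and 142 CPM and Tnfaip3 at 26.1 and 12.9 CPM in the same libraries. Tnfaip3 was thus higher in the macrophage library of this combination after TMM scaling, and it was lower in macrophages in the other 7 pairs.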
